A study of Mus musculus with 14 samples.

Results

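The IL-6 family genes examined here were 8 of the 50686 genes counted: the receptor chains Il6ra, Il6st, Lifr, Osmr and Il11ra1, and the ligands Il6, Lif and Osm. They were chosen by name, and each symbol matched 1 row of the counts. All but Osmr, 7 of the 8, had enough counts to be tested. RNA was sequenced from 14 cultures of HPC-LSK lines, mouse haematopoietic progenitor lines kept in culture, all on a C57BL/6N background. LSK is the usual name of the bone marrow cells that lack lineage markers and carry Sca-1 and Kit. The groups were Cdk6 knockout (KO) lines transformed with BCR-ABL p210 (KO p210, n = 4), wild-type (WT) lines with p210 (WT p210, n = 3), untransformed KO lines (n = 3) and untransformed WT lines (n = 4). Per the labels' protocols the medium of untransformed lines contained SCF at 2% and IL-6 at 12.5 ng/ml, while p210 lines grew with neither. Every p210 difference below is therefore also a difference in cytokines in the medium, and transformation and medium cannot be told apart. The labels of p210 samples nevertheless include the word SCF without saying why. How the Cdk6 allele was deleted, how p210 was introduced, and whether a line is 1 clone are not given in the sources used here.

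Cytokines of the IL-6 family signal through gp130, the receptor chain encoded by Il6st. IL-6 binds the IL-6 receptor alpha chain (Il6ra), and the pair then engages gp130. LIF binds the LIF receptor (Lifr), which pairs with gp130, mouse oncostatin M (Osm) acts mainly through the oncostatin M receptor (Osmr) with gp130, and IL-11 uses its own alpha chain (Il11ra1). The receptors activate JAK kinases and STAT3, and proteins of the SOCS family limit the signal. IL-6 is commonly added to cultures of haematopoietic progenitors together with SCF, the ligand of Kit.

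The promoters of the ligands Il6 and Lif and of the receptor chain Il6st are shown because Il6 encodes the cytokine left out of the p210 medium, Lif had the largest fold with p210 among the ligands, and Il6st encodes the chain shared by the family's receptors, with a large fold in KO lines. Each sequence runs from 250 bases before to 50 bases after the RefSeq start site (GRCm38.p6), 5′ to 3′ on the gene's strand, with motif matches in capitals. Il6 lies at chr5:30012864-30013163 on the plus strand, Lif at chr11:4257318-4257617 on the plus strand and Il6st at chr13:112463820-112464119 on the plus strand.
Il6: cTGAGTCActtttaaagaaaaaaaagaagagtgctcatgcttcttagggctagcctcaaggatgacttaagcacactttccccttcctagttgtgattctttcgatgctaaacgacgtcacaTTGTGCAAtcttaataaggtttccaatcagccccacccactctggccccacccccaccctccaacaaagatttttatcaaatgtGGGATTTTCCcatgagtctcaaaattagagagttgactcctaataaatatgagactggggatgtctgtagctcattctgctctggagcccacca
Lif: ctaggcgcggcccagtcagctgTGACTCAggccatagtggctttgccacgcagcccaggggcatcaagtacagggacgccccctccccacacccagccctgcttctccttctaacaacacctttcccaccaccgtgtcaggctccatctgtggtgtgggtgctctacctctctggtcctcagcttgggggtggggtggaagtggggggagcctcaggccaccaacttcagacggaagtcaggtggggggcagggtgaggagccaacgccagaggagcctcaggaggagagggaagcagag
Il6st: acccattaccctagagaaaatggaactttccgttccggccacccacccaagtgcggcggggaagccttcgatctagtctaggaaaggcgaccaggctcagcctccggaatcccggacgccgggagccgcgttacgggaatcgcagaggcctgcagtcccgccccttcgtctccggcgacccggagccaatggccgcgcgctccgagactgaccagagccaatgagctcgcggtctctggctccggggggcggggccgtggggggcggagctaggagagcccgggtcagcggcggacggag

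Motifs were searched on both strands as plain letters, and matches did not overlap. They were TTCNNNGAA for STAT proteins, TGACGTCA for the cyclic AMP response element (CRE), TTGCNNAA for C/EBP proteins and TGANTCA for AP-1. For NF-kB only a narrow form of the kappa B letters was searched, that of the Il6 match below with a middle base left free. Broader kappa B letters were not searched, so a window without an NF-kB match here can still hold them. The Il6 window held an NF-kB match from -44 to -35 relative to the start site, a C/EBP match on the opposite strand from -128 to -121 and an AP-1 match from -249 to -243. The Lif window held an AP-1 match from -228 to -222, and the Il6st window held no match. Of 32851 RefSeq promoters of the same length, 0.411% held the NF-kB letters, 10.8% the C/EBP letters, 7.81% the AP-1 letters, 8.3% the STAT letters and 1.79% the CRE letters. No STAT or CRE match lay in the 9 windows found for 7 of the 8 genes, and Osm had no entry. GC content was 44% in the Il6 window, 63.7% in the Lif window and 68.3% in the Il6st window, against a median of 52.7% over all promoters. A match describes letters in the window and is not a measured binding site.

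Libraries held 20270348 to 50303271 counts, and 14512 genes had enough counts to be tested. Cdk6, the kinase removed in the knockout, had 163 to 578 CPM (counts scaled to a common library size with TMM factors) in KO p210 lines, against 576 to 606 CPM in WT p210 lines. The library labelled KO p210 replicate 2 held the 578 CPM, inside the WT p210 range, so its Cdk6 level goes against its label. Cdk6 itself did not pass the test between KO and WT p210 lines (log2 fold change -0.86 ± 0.31, adjusted p = 0.147), and the groups overlapped. In untransformed lines Cdk6 had 236 to 271 CPM in KO, against 970 to 1305 CPM in WT. Replicate 3 of the untransformed WT lines differed from the rest of its group in the mast cell protease Tpsb2, at 3319 TPM (transcript abundance scaled for gene length and depth), against 0.258 to 32.7 TPM in the other WT untransformed libraries. Values without these libraries are given with the results. The LSK markers were present: Kit averaged 10.6 TPM in KO p210 lines, 17.1 TPM in WT p210 lines, 95.3 TPM in KO untransformed lines and 180 TPM in WT untransformed lines. Of 10 lymphoid markers, Cd3e, Ms4a1, Rag1 and Cd8a had no count in any library, and all but Il7r stayed below 1 TPM. Il7r averaged 21.8 TPM in KO p210, 20.1 TPM in WT p210, 26.6 TPM in KO untransformed and 6.2 TPM in WT untransformed lines. Nothing in the labels says that replicates were derived separately, and p-values therefore cover only the spread among these libraries, which may be technical. In bulk RNA, fewer cells that express a gene and less of its RNA per cell cannot be told apart.

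On the length-scaled TPM scale the order of the members differed between states. In p210 lines the ligands were the most abundant members. In KO p210 lines Il6 averaged 83.0 ± 64.0 TPM (SD, n = 4), Osm 75.8 ± 50.0 TPM and Lif 58.4 ± 50.2 TPM, ahead of Il6ra at 14.9 ± 4.30 TPM, Il11ra1 at 8.21 ± 5.21 TPM, Il6st at 0.483 ± 0.464 TPM and Lifr at 0.0431 ± 0.0478 TPM. In WT p210 lines Osm averaged 185 ± 205 TPM (n = 3), Il6 92.6 ± 69.9 TPM and Lif 72.7 ± 16.2 TPM, ahead of Il11ra1 at 10.2 ± 0.367 TPM, Il6ra at 8.66 ± 0.0596 TPM, Il6st at 5.71 ± 4.16 TPM and Lifr at 0.0771 ± 0.0845 TPM. The ligands overlapped each other in their ranges within both p210 groups. In untransformed lines Il6ra, Il6st and Il11ra1 had the highest means, and Lifr stayed the lowest or next to lowest. Il6ra had 53.9 ± 4.44 TPM, Il6st 23.5 ± 5.42 TPM and Il11ra1 16.4 ± 1.58 TPM in KO untransformed lines (n = 3), and the same genes had 19.3 ± 6.71, 17.8 ± 5.24 and 18.1 ± 3.83 TPM in WT untransformed lines (n = 4), where they overlapped. The ligands there averaged 1.21 to 7.67 TPM in KO lines and 2.16 to 11.3 TPM in WT lines.

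**Figure D1:**
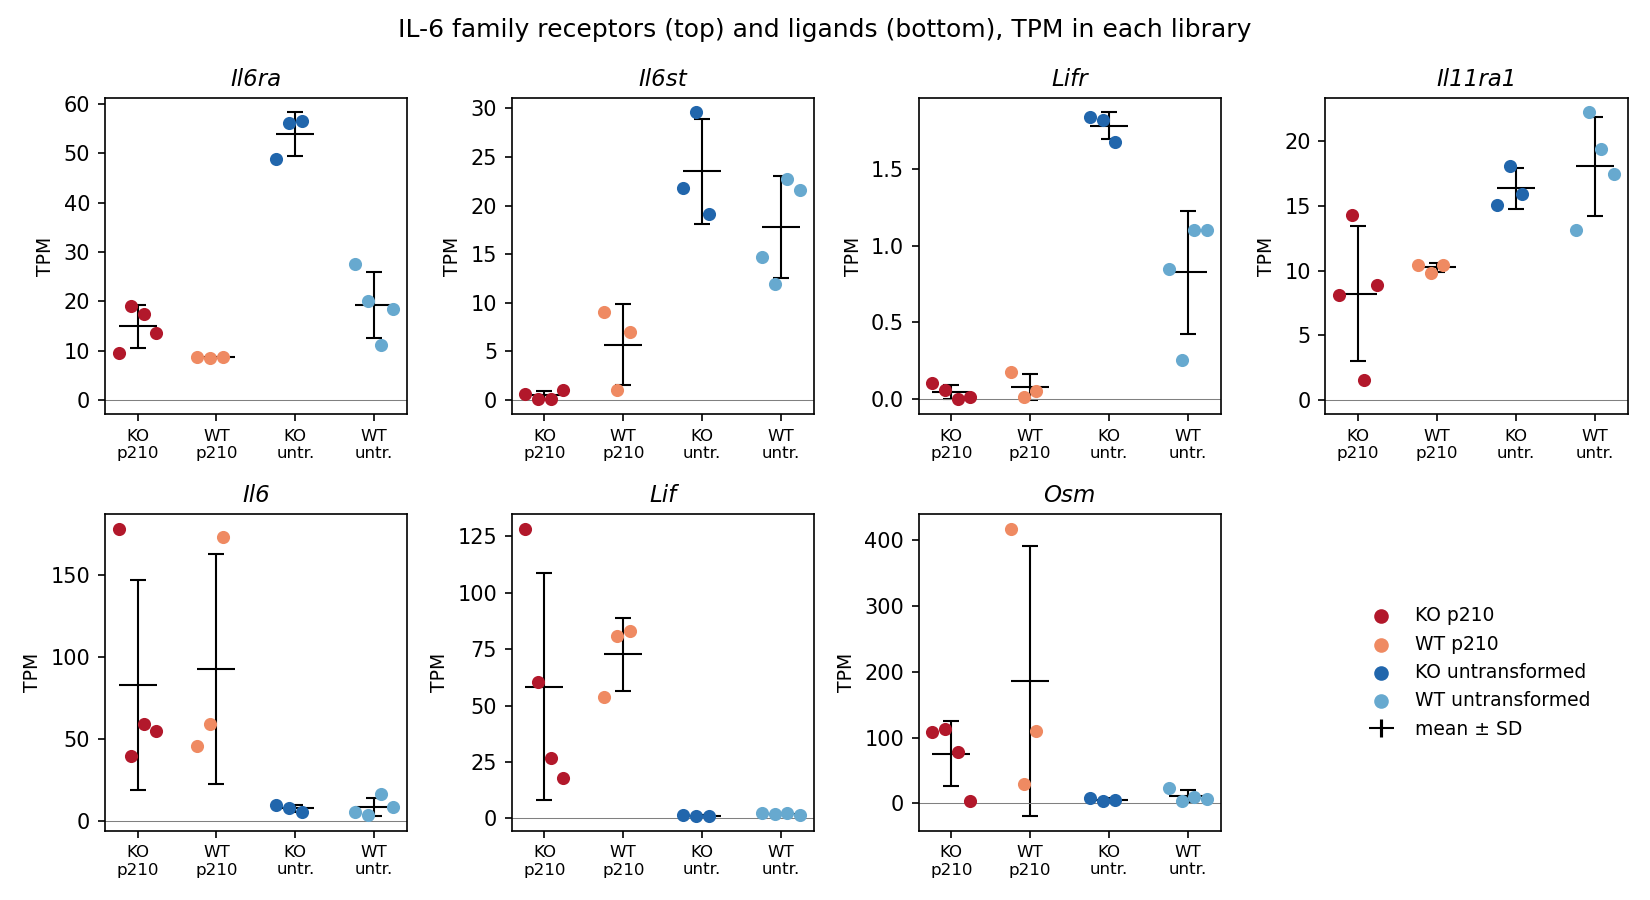
TPM of the 7 members that passed the count filter, 1 panel per gene, each with its own linear axis and a thin line at 0. Points are single libraries, placed left to right by replicate number, in the order KO p210, WT p210, KO untransformed and WT untransformed, and bars are mean ± SD. The ligands in the lower row were high in p210 libraries and spread widely there, with Osm between 4.31 and 417 TPM, while Il6st and Lifr were lowest in p210 libraries.

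All 3 ligand genes rose in p210 lines of both genotypes. Every p210 library was above every untransformed library of its genotype for Il6 and Lif, and all but 1 KO p210 library were for Osm. In this test 19.2% of all genes tested were called higher with p210 in KO lines, and 21.9% in WT lines. The fitted folds of the ligands were between 11.9 and 52.9 in KO lines and between 12.1 and 37.8 in WT lines.

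Il6 encodes the cytokine that was supplied to the untransformed lines and withheld from the p210 lines. Its CPM was 146.8, 31.6, 45.3 and 46.3 in KO p210 replicates 1 to 4, against 7.23, 6.04 and 3.83 in KO untransformed replicates 1 to 3. It was 31.2, 45.3 and 127 in WT p210 replicates 1 to 3, against 3.64, 2.44, 10.6 and 5.62 in WT untransformed replicates 1 to 4. The groups did not overlap in either genotype, and within each p210 group 1 library stood well above the rest. The log2 fold change of p210 over untransformed was 3.57 ± 0.74 in KO (SE, edgeR quasi-likelihood test, adjusted p = 0.00322) and 3.60 ± 0.68 in WT (adjusted p = 0.00158). Without KO p210 replicate 1 the KO value was 2.86 (adjusted p = 0.00539), and without WT p210 replicate 3 the WT value was 2.76 (adjusted p = 0.0081). The highest WT untransformed value was that of replicate 3, without which the WT value was 4.11 (adjusted p = 0.00168).

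Lif encodes leukaemia inhibitory factor, which signals through the LIF receptor and gp130. It had 189.7, 86.0, 37.0 and 26.8 CPM in KO p210 replicates 1 to 4, against 1.86, 1.45 and 1.51 CPM in KO untransformed lines. It had 66.4, 110.4 and 109 CPM in WT p210 lines, against 2.92, 2.28, 2.91 and 2.03 CPM in WT untransformed lines. The lowest p210 library was far above the highest untransformed one, and the spread was wider in KO p210 than in WT p210. The log2 fold change with p210 was 5.72 ± 0.69 in KO (adjusted p = 0.000127; 4.96 without KO p210 replicate 1, adjusted p = 5.25e-05) and 5.24 ± 0.59 in WT (adjusted p = 7.71e-05), with the smallest adjusted p of the members in both genotypes.

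Osm encodes oncostatin M, a cytokine made by myeloid cells. It had 83.3, 83.5, 56.3 and 3.39 CPM in KO p210 replicates 1 to 4, against 5.41, 2.94 and 3.66 CPM in KO untransformed lines. It had 268, 20.7 and 75.7 CPM in WT p210 lines, against 14.9, 2.59, 5.60 and 4.59 CPM in WT untransformed lines. KO p210 replicate 4 lay within the untransformed range, so the KO groups overlapped, and the WT groups did not. With p210 the log2 change of Osm was 3.83 ± 1.12 in KO (adjusted p = 0.0188; 4.22 without KO p210 replicate 4, adjusted p = 0.00484) and 4.16 ± 1.02 in WT (adjusted p = 0.00745). The WT value was 2.81 without WT p210 replicate 1 (adjusted p = 0.039) and 4.82 without WT untransformed replicate 1 (adjusted p = 0.00795). The KO call was lost when any 1 KO untransformed library was left out (adjusted p = 0.0516 without replicate 1, 0.0686 without replicate 2 and 0.0672 without replicate 3). It was lost in 8 of 28 alternatives in all, the others being the cell line as a block (3.09, adjusted p = 0.0859), limma-voom (3.13, adjusted p = 0.199), no filter on low counts (3.77, adjusted p = 0.0516) and each code alone (4.33, adjusted p = 0.0652 in the first).

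Marker lists of other myeloid cells moved in different directions with p210, where 37.2% of all genes tested were called in KO and 39.5% in WT. Of 8 mast cell and basophil markers, 3 rose with p210 in KO, and 3 rose and 2 fell in WT. Their summed level was 17060 to 26730 TPM in KO p210 lines, against 6598 to 7683 TPM in KO untransformed lines, and 13490 to 39650 TPM in WT p210 lines, against 4101 to 19020 TPM in WT untransformed lines. The mast cell markers Tpsb2 and Cma1 were at most 0.712 and 14.7 TPM in any p210 library. In untransformed libraries Tpsb2 had 9.54 to 68.2 TPM in KO and 0.258 to 3319 TPM in WT. Cma1 had 3.16 to 56.1 TPM there in KO and 0.173 to 2706 TPM in WT. Both WT maxima were in replicate 3. Cpa3, in the same list, averaged 12310 TPM in KO p210 against 3424 TPM in KO untransformed lines. In WT it averaged 9174 TPM with p210 against 2234 TPM untransformed. The basophil protease Mcpt8 averaged 8864 TPM in KO p210 and 13010 TPM in WT p210, against 1172 TPM in KO untransformed and 223 TPM in WT untransformed lines. Fcer1a, a chain of the high-affinity IgE receptor in the same list, averaged 954 TPM in KO p210 against 2423 TPM in KO untransformed and 2796 TPM in WT p210 against 5368 TPM in WT untransformed lines, and did not pass (adjusted p = 0.056 in KO and 0.204 in WT). Of 13 neutrophil and monocyte markers tested, none rose and 3 fell in KO, and 1 rose and 2 fell in WT, with median log2 fold changes of -0.57 in KO and -0.70 in WT. Of 10 macrophage and dendritic cell markers, 1 rose and 1 fell in KO, and 3 rose and 1 fell in WT. The part of these cells in the ligand levels was not tested.

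The receptor chains went the other way with p210: Il6ra and Lifr fell in both genotypes, and Il6st fell in KO. The share of all genes called lower was 18% in KO and 17.6% in WT. Counting both directions, 6 of 7 tested members passed in KO, where 37.2% of all genes did, and 5 of 7 in WT, where 39.5% did. The median log2 fold change over the 7 members was -0.86 in KO and -0.67 in WT, against -0.01 and 0.02 over all genes tested. The CPM ranges of p210 and untransformed libraries did not overlap for 5 of 7 members in KO and 7 of 7 in WT, beside 46.1% and 45% of all genes.

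**Figure D2:**
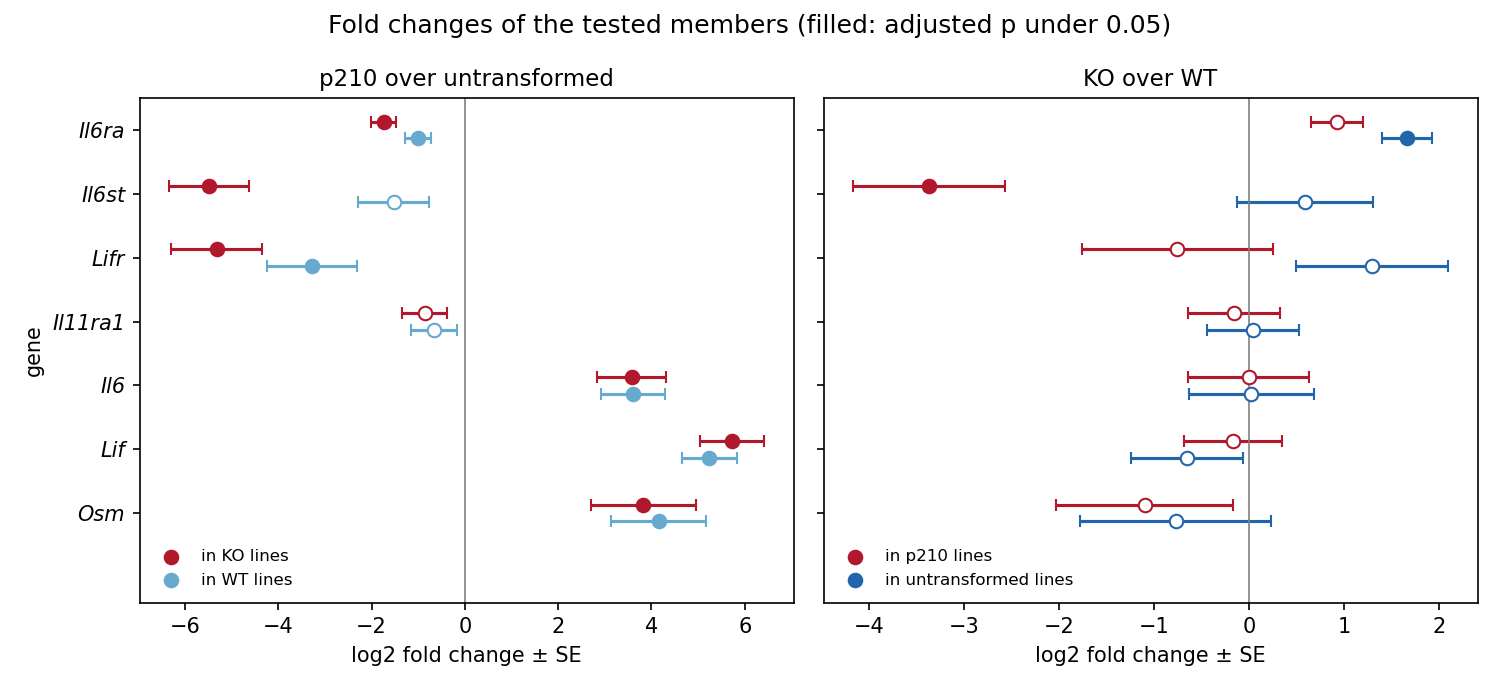
Fitted log2 fold change with its SE for the 7 tested members, p210 over untransformed on the left (KO lines above WT lines for each gene) and KO over WT on the right (p210 above untransformed). Filled points passed the edgeR test at an adjusted p under 0.05. The ligands lay at 3.57 to 5.72 on the left and all 4 receptor chains lay below 0 there, and on the right only Il6ra in untransformed lines and Il6st in p210 lines are filled.

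Leaving out the libraries that stand apart kept these p210 calls. Without KO p210 replicate 2 the log2 fold changes in KO were 3.81 for Il6 (adjusted p = 0.00354), 5.72 for Lif (adjusted p = 0.00039), 3.58 for Osm (adjusted p = 0.0367), -1.87 for Il6ra (adjusted p = 0.000952), -5.16 for Il6st (adjusted p = 0.00198) and -5.54 for Lifr (adjusted p = 0.00505). Without WT untransformed replicate 3 those in WT were 5.31 for Lif (adjusted p = 0.000385), 4.08 for Osm (adjusted p = 0.0216) and -3.11 for Lifr (adjusted p = 0.0348), beside the values of Il6 and Il6ra given with those genes.

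Il6ra encodes the chain that binds IL-6. It had 27.6, 53.6, 48.0 and 40.9 CPM in KO p210 replicates 1 to 4, against 129, 152 and 146 CPM in KO untransformed lines. It had 21.2, 23.3 and 22.7 CPM in WT p210 lines, against 64.7, 46.3, 25.8 and 43.0 CPM in WT untransformed lines. Neither pair of groups overlapped, and WT untransformed replicate 3, which holds the mast cell proteases, was the lowest of its group. The log2 fold change with p210 was -1.74 ± 0.26 in KO (adjusted p = 0.000507) and -1.003 ± 0.27 in WT (adjusted p = 0.0124). The WT call was lost with the cell line as a block, at -0.93 (adjusted p = 0.059), and without WT untransformed replicate 3 it stood at -1.20 (adjusted p = 0.00185). Group means in TPM ran from KO untransformed, highest, through WT untransformed and KO p210, whose ranges overlapped, to WT p210.

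Il6st encodes gp130, the chain shared by the family. It had 2.51, 0.502, 0.262 and 4.06 CPM in KO p210 replicates 1 to 4, against 73.8, 102 and 63.6 CPM in KO untransformed lines. It had 28.5, 3.70 and 23.5 CPM in WT p210 lines, against 44.5, 35.7, 67.6 and 64.8 CPM in WT untransformed lines. The KO p210 libraries were all far below the untransformed ones, and WT p210 replicate 2 stood apart from the other WT p210 libraries at a level inside the KO p210 range. The KO difference was 44.5-fold, a log2 fold change of -5.48 ± 0.85 (adjusted p = 0.000601; -6.32 without KO p210 replicate 4, adjusted p = 0.000591). The WT log2 fold change of -1.52 ± 0.76 did not pass the test (adjusted p = 0.133), although the WT groups did not overlap. With limma-voom it passed, at -1.98 (adjusted p = 0.0185), so edgeR's call in KO alone does not show that the genotypes differ. Group means ran from KO untransformed through WT untransformed, with overlapping ranges, to WT p210 and KO p210.

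Lifr encodes the LIF receptor and was near the detection limit in p210 lines. It had 7, 5, 0 and 1 counts in KO p210 replicates 1 to 4, against 128, 150 and 264 counts in KO untransformed lines, and 16, 1 and 3 counts in WT p210 lines, against 53, 37, 111 and 123 counts in WT untransformed lines. On the CPM scale these were 0 to 0.366 in KO p210 and 5.19 to 5.88 in KO untransformed, and 0.0336 to 0.502 in WT p210 and 0.699 to 3.09 in WT untransformed. Scaled by library size alone, without TMM factors, 3 counts would stand at 0.0596 to 0.148 CPM here, a limit that covers counting error only. With p210 its log2 fold change was -5.32 ± 0.97 in KO (adjusted p = 0.00153; -6.19 without KO p210 replicate 1, adjusted p = 0.00176) and -3.27 ± 0.96 in WT (adjusted p = 0.0186). The WT call was lost without WT p210 replicate 2 (-2.75, adjusted p = 0.057) or replicate 3 (-3.08, adjusted p = 0.06), and without WT p210 replicate 1 the value was -4.70 (adjusted p = 0.0117).

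Il11ra1 encodes the IL-11 receptor alpha chain. It had 12.3, 20.8, 2.21 and 13.8 CPM in KO p210 replicates 1 to 4, against 20.5, 25.2 and 21.2 CPM in KO untransformed lines. It had 13.2, 13.8 and 14.1 CPM in WT p210 lines, against 15.9, 26.7, 23.2 and 21.1 CPM in WT untransformed lines. KO p210 replicate 3 was well below every other library, and the WT p210 libraries lay just below the WT untransformed ones. The log2 fold changes of -0.86 ± 0.48 in KO (adjusted p = 0.179) and -0.67 ± 0.49 in WT (adjusted p = 0.303) did not pass. With the line as a block the WT value was -0.65 and passed (adjusted p = 0.0362), as it did without KO p210 replicate 3, which enters the estimate of spread (-0.67, adjusted p = 0.0211). Il11ra1 has a near-identical copy, Il11ra2, which had no count in any library. How reads that match both copies were counted is not given in the sources used here, so the level of Il11ra1 is uncertain. Osmr, the oncostatin M receptor, had 1 count in KO untransformed replicate 1 and 1 in WT untransformed replicate 2 and none in the other 12 libraries, so it was not tested and no difference was detectable at this depth.

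The balance of the IL-6 receptor's chains varied widely. The ratio of Il6ra to Il6st in TPM was 14.2, 137, 235 and 12.9 in KO p210 replicates 1 to 4, and 0.957, 8.10 and 1.24 in WT p210 replicates 1 to 3. In KO untransformed libraries it was 2.24, 1.90 and 2.95, and in WT untransformed libraries 1.87, 1.67, 0.489 and 0.853. Every KO p210 library thus lay above all others, and WT p210 replicate 2 came next. The ratios in KO p210 rest on 9 to 104 Il6st counts per library. Counts per gene do not separate membrane-bound from soluble forms of either chain.

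**Figure D3:**
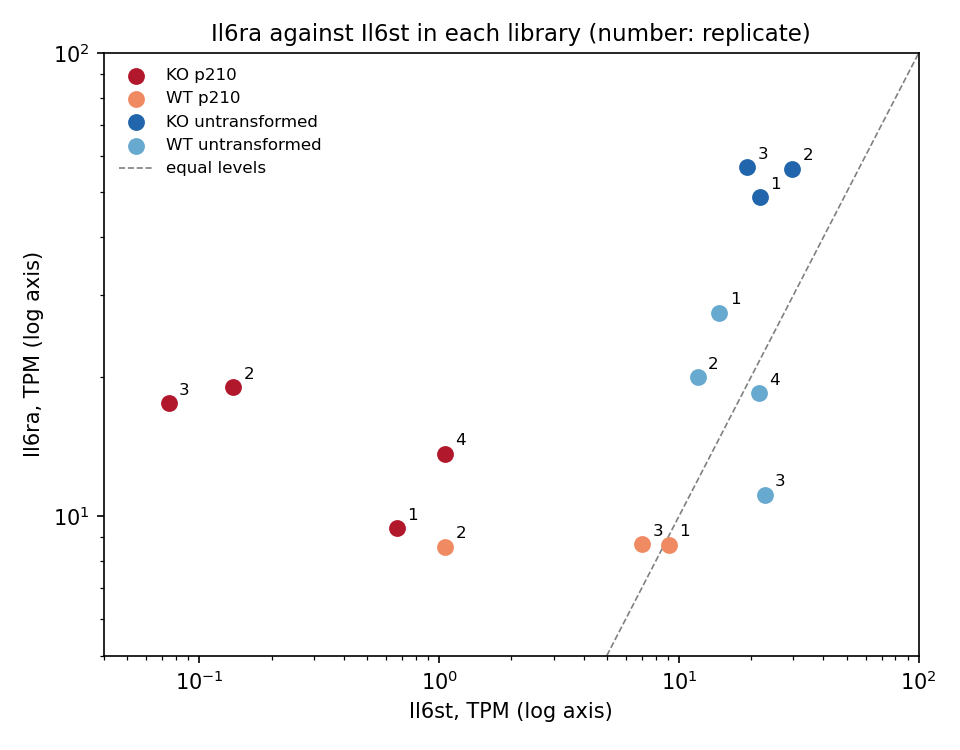
Il6ra against Il6st in TPM, both on log axes, 1 point per library with its replicate number, and a dashed line where both levels are equal. KO p210 libraries lie at the far left, at 0.0745 to 1.05 TPM of Il6st with 9.43 to 19.0 TPM of Il6ra, and KO untransformed libraries at the top right.

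Several markers of progenitors and of megakaryocytes and erythroid cells were also called lower with p210, where 18% of all genes tested were called lower in KO and 17.6% in WT. Of 11 LSK markers, 6 fell and 1 rose with p210 in KO, and 5 fell and 1 rose in WT. Their summed level was 1202 to 1668 TPM in KO p210 against 1704 to 2376 TPM in KO untransformed lines, and 1818 to 1946 TPM in WT p210 against 2204 to 3188 TPM in WT untransformed lines. Of 9 megakaryocyte and erythroid markers tested, 5 fell in KO and 6 in WT and none rose, with median log2 fold changes of -3.73 in KO and -1.73 in WT, beside LSK medians of -1.56 in KO and -1.77 in WT. The summed megakaryocyte and erythroid level, over 12 listed genes, was 1805 to 3849 TPM in KO p210 against 1858 to 3291 TPM in KO untransformed, and 4063 to 5941 TPM in WT p210 against 4103 to 12070 TPM in WT untransformed lines. These ranges overlapped in both genotypes. Pf4 had the highest mean of the listed genes in every group. It averaged 2442 TPM in KO p210 against 1993 TPM in KO untransformed lines, and 4429 TPM in WT p210 against 5555 TPM in WT untransformed lines. The part of these cells and stages in the receptor levels was not tested.

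Between genotypes, untransformed lines differed in 1 of 7 tested members, where 15.2% of all genes were called. Il6ra rose in KO untransformed lines, at 129 to 152 CPM against 25.8 to 64.7 CPM in WT untransformed lines. The groups did not overlap, and the log2 fold change was 1.66 ± 0.26 (adjusted p = 0.00573), where 8.73% of all genes were called higher and 6.5% lower. Without WT untransformed replicate 3 it was 1.45 (adjusted p = 0.00976). Within the libraries of 1 code in the descriptions (replicates 1 and 2 of each group) it was 1.33 (adjusted p = 0.0748), and within those of the other code (replicates 3 and 4, with 1 KO untransformed library) it was 2.06 (adjusted p = 0.236). The other 6 members did not pass: Lifr had a log2 fold change of 1.29 ± 0.80 (adjusted p = 0.288), Il6st 0.59 ± 0.72 (adjusted p = 0.611), Lif -0.66 ± 0.59 (adjusted p = 0.474), Osm -0.77 ± 1.01 (adjusted p = 0.635), Il11ra1 0.04 ± 0.48 (adjusted p = 0.966) and Il6 0.02 ± 0.66 (adjusted p = 0.986). Lifr and Lif did not overlap between the groups, which with Il6ra makes 3 of 7 members, beside 39.7% of all genes.

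Markers of several cell types also differed between the untransformed genotypes. Of 13 neutrophil and monocyte markers tested, 3 rose in KO untransformed lines and none fell, where 8.73% of all genes were called higher. The summed level of the 14 listed was 41060 to 56500 TPM in KO untransformed lines, against 844.8 to 19270 TPM in WT untransformed lines. WT untransformed replicate 3 was lowest both in this sum and in Il6ra. Ly6g, which marks mature neutrophils, had no count in either group. Of 10 macrophage and dendritic cell markers tested, 2 rose and none fell in KO untransformed lines. The 12 listed summed to 969.6 to 1352 TPM in KO untransformed lines, against 166.3 to 553.1 TPM in WT untransformed lines. Of 9 megakaryocyte and erythroid markers tested, none rose and 4 fell, where 6.5% of all genes were called lower. The part of these cells in the Il6ra difference was not tested.

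In p210 lines the genotypes differed in Il6st. It was 0.262 to 4.06 CPM in KO p210 against 3.70 to 28.5 CPM in WT p210, with WT p210 replicate 2 overlapping the KO range. The difference was 10.3-fold, a log2 fold change of -3.37 ± 0.80 (adjusted p = 0.0359), and it made 1 of 7 members called, beside 4.44% of all genes in either direction, 3.56% lower and 0.882% higher. This call is close to the threshold. It was lost in 19 of 27 alternatives, among them 11 of the 14 that leave out 1 library, where adjusted p ran from 0.0135 without WT p210 replicate 2 to 0.128 without WT p210 replicate 1. Without KO p210 replicate 2, whose Cdk6 goes against its label, it stood at -3.05 (adjusted p = 0.093). The direction was the same in all 27. Of 9 megakaryocyte and erythroid markers tested, 4 were lower in KO p210 than in WT p210 and none was higher (median log2 fold change -3.595). Of 11 LSK markers, 2 were lower and none was higher (median -0.53). Neutrophil and monocyte markers summed to 15960 to 70230 TPM in KO p210, against 5852 to 19580 TPM in WT p210, with none of 13 called. The part of these cells in the Il6st difference was not tested.

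Il6ra did not overlap between the p210 groups, at 27.6 to 53.6 CPM in KO p210 and 21.2 to 23.3 CPM in WT p210, which makes 1 of 7 members, beside 13.3% of all genes. Its log2 fold change of 0.93 ± 0.27 did not pass (adjusted p = 0.0781). Without KO p210 replicate 2 it was 0.79 (adjusted p = 0.178). It passed without WT untransformed replicate 3 (0.91, adjusted p = 0.0311) and without KO p210 replicate 1 (1.08, adjusted p = 0.0361). The log2 fold changes of the ligands were 0.00 ± 0.64 for Il6 (adjusted p = 0.999), -0.17 ± 0.52 for Lif (adjusted p = 0.899) and -1.10 ± 0.93 for Osm (adjusted p = 0.565), those of Lifr and Il11ra1 were -0.76 ± 1.01 (adjusted p = 0.736) and -0.16 ± 0.49 (adjusted p = 0.899), and none passed.

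Whether the p210 difference itself depended on genotype was tested as an interaction. None of the 7 members passed edgeR's test, which called 0.0345% of all genes, and 1 member had an unadjusted p under 0.05. This was Il6st, whose fall with p210 was larger in KO by -3.96 ± 1.07 on the log2 scale (edgeR adjusted p = 0.198). DESeq2 called it (adjusted p = 0.015), and limma-voom called no member. The interaction for Il6 was -0.03 ± 0.92, for Lif 0.49 ± 0.78 and for Osm -0.33 ± 1.37.

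Among other members of the family, 5 of 7 ligands listed and 1 of 5 receptors listed passed the count filter. Ebi3 had the highest mean of these ligands in every group and was not called in any contrast. It averaged 188 TPM in KO p210, 84.5 TPM in WT p210, 112 TPM in KO untransformed and 70.9 TPM in WT untransformed lines. Of the other receptor genes listed, Il27ra, the IL-27 receptor chain that pairs with gp130, passed the count filter. It had 1.32 ± 0.54 CPM in KO p210 (SD, n = 4) and 4.15 ± 1.63 CPM in WT p210 (n = 3), against 12.9 ± 4.12 CPM in KO untransformed (n = 3) and 29.3 ± 6.05 CPM in WT untransformed lines (n = 4). It fell with p210 by a log2 fold change of -3.31 ± 0.36 in KO (adjusted p = 6.43e-05) and -2.82 ± 0.37 in WT (adjusted p = 0.000174). It was also lower in KO than in WT, by -1.67 ± 0.35 in p210 lines (adjusted p = 0.0198) and -1.18 ± 0.34 in untransformed lines (adjusted p = 0.0388). Cntfr, Il31ra and Il11ra2 were among those that did not pass the filter. Of 5 other ligands tested, none was called with p210, and Clcf1, cardiotrophin-like cytokine factor 1, rose in KO untransformed lines, at 8.95 ± 1.91 CPM against 1.89 ± 0.95 CPM in WT untransformed lines (log2 fold change 2.25 ± 0.44, adjusted p = 0.0103).

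The feedback inhibitors of the signal moved in both directions with p210. Of 10 inhibitors, 4 rose and 1 fell in KO, and 5 rose and 1 fell in WT, with medians of 0.17 in KO and 0.38 in WT. Over all genes tested, 37.2% were called in either direction in KO and 39.5% in WT. Socs2, a STAT5-induced SOCS gene, had 105 ± 10.3 CPM in KO p210 against 4.56 ± 1.11 CPM in KO untransformed lines, and 153 ± 19.7 CPM in WT p210 against 3.96 ± 1.62 CPM in WT untransformed lines. Its log2 fold change was 4.52 ± 0.31 in KO (adjusted p = 5.8e-06) and 5.26 ± 0.29 in WT (adjusted p = 1.05e-06). Cish, also a STAT5-induced inhibitor, rose by 4.33 ± 0.43 in KO (adjusted p = 4.75e-05) and 4.12 ± 0.39 in WT (adjusted p = 2.54e-05). Socs1, an inhibitor of JAK kinases, rose by 3.30 ± 0.49 in KO (adjusted p = 0.000416) and 3.65 ± 0.45 in WT (adjusted p = 0.000118). Socs3, the inhibitor that binds gp130 and is induced by STAT3, went the other way, at 17.7 ± 5.25 CPM in KO p210 against 65.7 ± 4.15 CPM in KO untransformed lines and 28.3 ± 5.50 CPM in WT p210 against 44.2 ± 5.18 CPM in WT untransformed lines. It fell by 1.89 on the log2 scale in KO (SE 0.21, adjusted p = 6.75e-05) and by 0.65 in WT (SE 0.21, adjusted p = 0.0268).

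Genes described as STAT3 targets moved in both directions. Of 22, 3 rose and 6 fell with p210 in KO, and 5 rose and 4 fell in WT, with medians of -0.33 in KO and -0.10 in WT. Counting both directions, the share called was near that over all genes tested, which was 37.2% in KO and 39.5% in WT. Bcl3, a cofactor of NF-kB proteins, had a log2 fold change of -2.31 ± 0.44 in KO (adjusted p = 0.00191) and -3.11 ± 0.49 in WT (adjusted p = 0.000521). Bcl2l1, which encodes the survival protein BCL-XL, rose by 1.03 ± 0.18 in KO (adjusted p = 0.000989) and 0.68 ± 0.17 in WT (adjusted p = 0.00776). Birc5, which encodes survivin, fell in WT, with a log2 fold change of -0.56 ± 0.13 (adjusted p = 0.00434). Socs3 and Stat3 stand in 2 of these lists each.

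Among 20 signal transducers, 4 rose and 8 fell with p210 in KO, and 6 rose and 8 fell in WT, with medians of 0.06 in KO and 0.04 in WT. The share of all genes tested called in either direction was 37.2% in KO and 39.5% in WT. Jak2, a kinase that binds gp130, rose by 0.93 ± 0.15 in KO (adjusted p = 0.00057) and 0.82 ± 0.14 in WT (adjusted p = 0.000881). Sos1, which activates Ras, rose by 0.77 ± 0.13 in KO (adjusted p = 0.000972) and 0.46 ± 0.13 in WT (adjusted p = 0.0144). Stat5a fell, by -0.45 ± 0.12 in KO (adjusted p = 0.0129) and -0.85 ± 0.13 in WT (adjusted p = 0.000325). Of 4 genes of receptor shedding, which releases soluble IL-6 receptor, Rhbdf2, which encodes a partner of the protease ADAM17, rose with p210 by 1.73 ± 0.28 in KO (adjusted p = 0.000798) and 2.64 ± 0.27 in WT (adjusted p = 4.63e-05). Adam10, a protease that cuts the receptor, fell by -0.39 ± 0.10 in KO (adjusted p = 0.00799) and -0.41 ± 0.10 in WT (adjusted p = 0.00641).

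**Figure D4:**
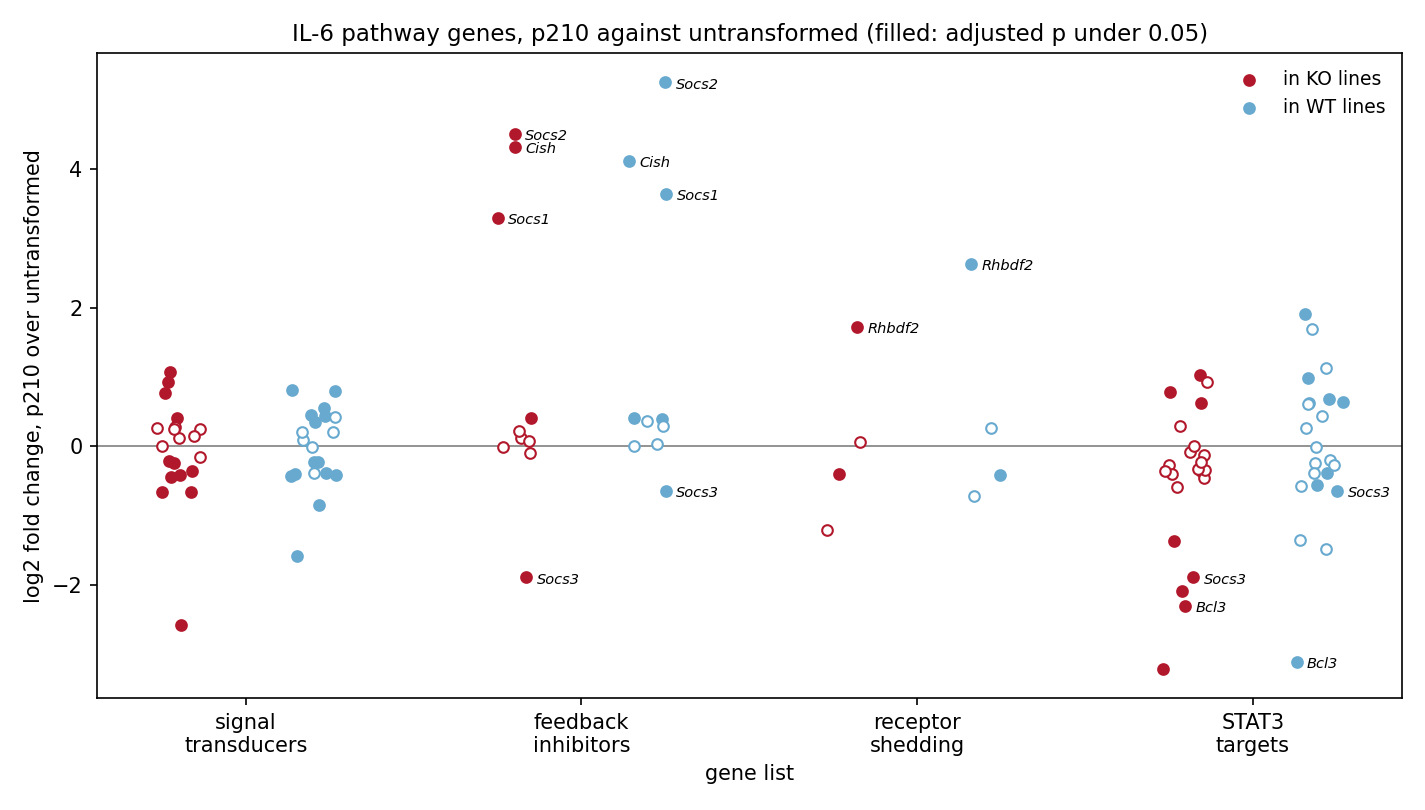
Log2 fold change of p210 over untransformed for the genes of 4 IL-6 pathway lists, with KO lines left of WT lines within each list. Each point is a gene, horizontal position within a column carries no value, and filled points passed the edgeR test at an adjusted p under 0.05. Socs2, Cish and Socs1 lie between 3.30 and 5.26 in both genotypes, and Socs3 lies at -1.89 in KO and -0.65 in WT.

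Between genotypes the same lists were counted. In untransformed KO against WT, 3 of 20 transducers rose and 1 fell, and 2 of 10 inhibitors rose. Of 22 STAT3 targets 4 rose and of 4 shedding genes 1 rose, beside 15.2% of all genes called in either direction. The transducer that fell was Stat5a (log2 fold change -0.66 ± 0.12, adjusted p = 0.00907), and Rhbdf2 rose by 1.51 ± 0.27 (adjusted p = 0.00763). In p210 lines Ptpn1, a phosphatase that acts on JAK2, rose in KO by 0.65 ± 0.12 (adjusted p = 0.0115), and no other gene of these 4 lists passed, where 4.44% of all genes were called. It also rose in KO untransformed lines, by 0.57 ± 0.12 (adjusted p = 0.0121).

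Across the 14 libraries, the genes whose log2 CPM followed each member most closely were listed among 9852 genes, as a description in which the 4 groups set most of the variation. For Il6ra the closest was Ifngr1, a chain of the interferon gamma receptor (Pearson's r = 0.962), and for Il6st it was Smad3, a mediator of TGF-beta signals (r = 0.97). For Il6 the closest was Fgd3 (r = 0.99), followed by Furin, a protease that cuts proproteins (r = 0.983). For Lif it was Cish (r = 0.99), followed by Lat2 (r = 0.979). For Lifr it was Psmb10 (r = 0.958), for Il11ra1 Mtrf1 (r = 0.949) and for Osm Xpo5 (r = 0.909). Among the members themselves Lif and Il6 were the most alike (r = 0.93), followed by Lifr and Il6st (r = 0.84), while Il6ra and Il6st, the chains of 1 receptor, had r = 0.326.

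The members' positions are those of the files' GRCm38 annotation. Il6ra spans 89864059 to 89913196 on chromosome 3, Il6st 112464070 to 112510086 on chromosome 13 and Il11ra1 41699989 to 41769474 on chromosome 4. Lifr, at 7129559 to 7197489, and Osmr, at 6813577 to 6874969, are neighbours on chromosome 15. Il6 spans 30013114 to 30019981 on chromosome 5. Lif, at 4257557 to 4272514, and Osm, at 4236420 to 4241026, are neighbours on chromosome 11. Il6ra and Il11ra1 each overlap 1 gene on the opposite strand, and counting was stranded.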

How the data were processed

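The authors deposited raw counts per gene, made with featureCounts 1.5.1, stranded, on the GENCODE M13 annotation, per the file headers, and TPM values beside them. Reads (50 bp single ends, per the labels) were processed with Trimmomatic and STAR on GRCm38, per the submitters' processing notes, with versions not given in the sources used here. Recomputing the deposited TPM from counts and lengths differed by at most 0.049.

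Symbols came from a GENCODE table, for 50376 of 50686 genes. Counts were tested with edgeR 4.0.16 (R 4.3.3): quasi-likelihood F-test, robust, TMM scaling, filterByExpr (minimum count 10, minimum total 15), Benjamini-Hochberg over 14512 genes, threshold 0.05. All 14 libraries entered 1 fit with group as its term and 5 contrasts. TPM entered no test. The test was tried on simulated data. Likeness used log2 CPM (prior count 2) of genes averaging at least 5 CPM. Promoters came from RefSeq tables.

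The members and lists were chosen with earlier results of these data known. All members are named, with up to 3 called genes per list and contrast by smallest adjusted p, and the 3 genes most like each member, of which the text gives the first or first 2. Some genes that this rule names are not reported here. Alternatives were other scalings, no filter, DESeq2 1.42.0, limma-voom (limma 3.58.1), libraries left out, blocks, code and second run.

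A code and letter in the descriptions were read as the cell line, which the labels do not state, with 6 lines in both states. Deviations from group means of the same line correlated at 0.163, 0.114 and 0.123 in WT and 0.062, 0.08 and 0.021 in KO. Between states, different lines of 1 genotype correlated at -0.11 to 0.075 in WT and -0.1 to 0.069 in KO. WT untransformed replicate 1 and KO untransformed replicate 2, of different genotypes, correlated at 0.265. Samples of 1 line would share their origin if this reading holds. The line therefore served as the replicate block for p210 against untransformed in an alternative fit, while the main fit had no block. The value with this block is given where it changed a call.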

Additional observations from a re-analysis of the deposited data

Results flagged for a closer look

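Among the members' CPM values in groups of 4 libraries, 1 of 14 sets had a library far from the others. Il6 had 146.8 CPM in KO p210 replicate 1, and its gap to the next KO p210 library was 0.872 of the group's range, above the critical value of Dixon's test. Chance gives such a gap in about 1 of 20 sets. The same library was also the highest of its group in Lif, at 189.7 CPM.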

How the results depend on the processing

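Of the 13 member calls, 2 held in every alternative run: Il6 and Lif with p210 in WT lines. No call changed direction. The second code alone (replicates 3 and 4, with single libraries in 2 groups) lost 11 of the 13, and the first code alone lost 5. Depth limits Lifr and Osmr, and Il6st in KO p210 lines.

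The number of members called in KO against WT, untransformed, was 1, and it was 2 with limma-voom and 0 within the first code (2 libraries in each group; Il6ra 1.33, adjusted p = 0.0748) and within the second. In KO against WT, p210, it was 1 and became 2 with DESeq2. It was 0 with no filter, limma-voom, the fit of the compared groups alone, either code alone, the second run as a term, the replicate block by number (Il6st -3.82, adjusted p = 0.0537), and without WT untransformed replicate 3 and KO p210 replicate 2 together, and ran from 0 to 2 with 1 library left out. Of p210 calls, WT had 5, against 3 in the first code and 2 in the second, and KO had 6, against 0 in the second code. The interaction had 0, and 1 with DESeq2. The replicate block by line changed 3 calls with p210, all given above (Il6ra -0.93 and Il11ra1 -0.65 in WT, Osm 3.09 in KO), and it changed no other call. Replicate numbers did not pair KO with WT (correlations of deviations -0.081 to 0.119 within a state), so the block by number is given here only.

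Uncalled values near 0 changed sign. In untransformed KO against WT, Il11ra1 (0.04) became -0.017 with upper quartile scaling, -0.020 with code as a term, -0.066 with library size scaling and -0.098 in the second code. Il6 (0.02) became -0.033 with upper quartile and -0.082 with library size scaling, -0.35 with second run as a term and -1.11 in the second code, and Il6st (0.59) became -0.092 in the second code. In p210 lines, Il6 (0.00) became 0.006 with limma-voom, 0.032 with the number block, 0.10 with code, 1.22 in the first code, 0.21 with second run and 0.23 without both libraries. In the first code Il11ra1 was 0.30, Lif 0.64 and Lifr 0.007, and Lif was 0.052 with second run. For the interaction, Osm (-0.33) became 0.65 with the number block, 0.23 in the first code and 0.26 with second run. Il11ra1 (-0.20) became 0.11 with the line block and 0.21 in the first code, Il6 (-0.03) became 0.077 in the first code and 0.56 with second run, and Lif (0.49) became -1.04 in the second code. With 1 library left out, untransformed KO against WT ran from -0.12 to 0.12 for Il11ra1 and -0.27 to 0.51 for Il6. In p210 lines it ran from -0.54 to 0.19 for Il11ra1, -0.72 to 0.81 for Il6, -1.60 to 0.22 for Osm, -0.93 to 0.13 for Lif and -1.64 to 0.64 for Lifr. The interaction ran from -0.58 to 0.16 for Il11ra1, -0.74 to 0.82 for Il6, -0.99 to 1.02 for Osm and -0.28 to 0.78 for Lif. The causes were not tested.

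With library size scaling, the median over all genes moved to between -0.12 and -0.10 in the 4 contrasts between groups, and calls over all genes to 915 higher and 1657 lower in untransformed KO against WT, beside 1267 and 944. It gave 69 and 722 beside 128 and 517 in p210 KO against WT, 2516 and 3471 beside 3173 and 2554 with p210 in WT, and 2093 and 3466 beside 2790 and 2605 with p210 in KO. Over all alternatives, total calls ran from 0 to 3499 in untransformed KO against WT, 4 to 1454 in p210 KO against WT, 1566 to 6381 with p210 in WT, 73 to 6124 with p210 in KO and 0 to 409 for the interaction, lowest in the second code alone (for the interaction, without WT untransformed replicate 2 and others) and highest with DESeq2.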
